A study of Mus musculus with 6 samples.

Results

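A set of 5 transcripts of the mouse mitochondrial genome was examined in injured kidneys with and without MK-8617: the mRNAs mt-Nd5, mt-Nd6, mt-Cytb and mt-Co3 and the transfer RNA mt-Te. They were taken by symbol from a deposited table of 7340 genes, which lists 21 of the 37 annotated mitochondrial genes, and they were picked because of how they differed between these groups. The difference between the groups is therefore described for these 5 genes without a test.

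RNA was sequenced from 6 samples labelled as wild-type kidney; the series' design text calls them tumors, and the sample labels were followed. In 3 samples the kidney had IRI, ischaemia-reperfusion injury, caused by stopping and then restoring the blood flow. The other 3 had IRI and MK-8617. This compound blocks the prolyl hydroxylases, enzymes that label hypoxia-inducible factor (HIF) for breakdown when oxygen is present. IRI is common to both groups, and an uninjured or a drug-only group was not analysed here. A 1d tag stands in the deposited column names; no label gives a time after injury, a dose, an age or a strain.

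Mitochondria keep a small circular genome of their own, inherited through the mother and present in many copies per cell. Both of its strands are transcribed into long RNAs that are cut into mRNAs, ribosomal RNAs and transfer RNAs, many of the cuts falling at the ends of the transfer RNAs that lie between the other genes. The mRNAs encode core subunits of the respiratory chain and of ATP synthase, while the remaining subunits are encoded in the nucleus and imported. Proximal tubule cells of the kidney rely on this chain for the ATP that drives reabsorption, and they are a main site of damage in ischaemia.

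The 5 genes come from 2 places on the mitochondrial chromosome (GRCm38, with gene ends from GENCODE M21). On M, mt-Nd5 spans 11742 to 13565 on the plus strand, mt-Nd6 spans 13552 to 14070 on the minus strand, mt-Te spans 14071 to 14139 on the minus strand, and mt-Cytb spans 14145 to 15288 on the plus strand. These 4 genes are neighbours. The 3′ ends of mt-Nd5 and mt-Nd6 overlap by 14 bases on opposite strands, mt-Te and mt-Nd6 touch with 0 bases between them, and 5 bases separate mt-Te from mt-Cytb. mt-Co3 lies apart, at 8607 to 9390 on the plus strand, with 2351 bases between it and mt-Nd5. Each is a single exon without an intron in the annotation.

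**Figure D1:**
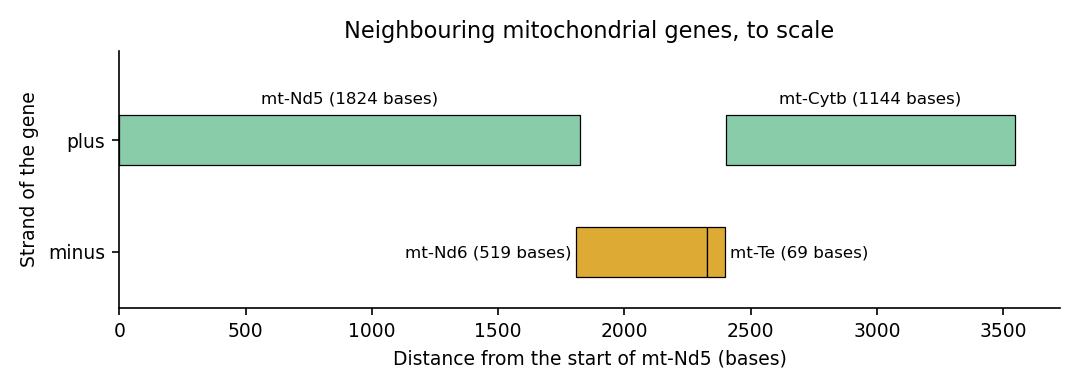
Map of the 4 neighbouring genes, with the distance from the start of mt-Nd5 in bases on the x axis and the strand of the gene on the y axis. mt-Nd5 (1824 bases) and mt-Cytb (1144 bases) lie on the plus strand, and mt-Nd6 (519 bases) and mt-Te (69 bases) touch each other on the minus strand between them.

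The whole mt-Te gene is printed first because it had the greatest fold difference of the 5 genes; it is the mitochondrial transfer RNA for glutamate, and the capitals mark its anticodon at bases 31 to 33. The ends of mt-Nd5 and mt-Nd6 follow because they show the overlap, in capitals, where each holds the reverse complement of the other. All are written 5′ to 3′ on the gene's own strand.
mt-Te: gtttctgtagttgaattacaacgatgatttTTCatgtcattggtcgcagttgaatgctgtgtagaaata
mt-Nd5, last 45 bases: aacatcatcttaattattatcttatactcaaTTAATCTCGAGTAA
mt-Nd6, last 45 bases: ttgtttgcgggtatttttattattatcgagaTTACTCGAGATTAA

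The ends of mt-Co3 and mt-Cytb are shown because neither gene holds a whole stop codon: the single capital T is the last base, and the stop is completed when the RNA is polyadenylated. The end of Gm28437, an annotated nuclear gene, is set beside them because it has the same letters as mt-Co3 up to that base.
mt-Co3, last 45 bases: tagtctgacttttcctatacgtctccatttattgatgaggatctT
mt-Cytb, last 45 bases: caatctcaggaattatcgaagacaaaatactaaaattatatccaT
Gm28437, last 44 bases: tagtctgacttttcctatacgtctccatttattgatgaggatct

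The starts of the mRNAs differ in their first codon, in capitals. mt-Nd5 begins with ATC, one of the unusual start codons of mitochondria, and the other 3 begin with ATG.
mt-Nd5, first 30 bases: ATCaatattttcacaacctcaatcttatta
mt-Nd6, first 30 bases: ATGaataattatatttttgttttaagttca
mt-Cytb, first 30 bases: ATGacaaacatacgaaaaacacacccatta
mt-Co3, first 30 bases: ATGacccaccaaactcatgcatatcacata

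Strand also sets the base composition. mt-Nd6, the only mRNA of the minus strand, was 28.1% G and 5.97% C, whereas mt-Cytb was 12.2% G and 26.9% C, mt-Nd5 9.98% G and 27.1% C, and mt-Co3 13.8% G and 25.1% C. mt-Te, on the same strand as mt-Nd6, was 23.2% G and 11.6% C.

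Counted reads per library ranged from 16835541 to 19508497. The values below are the authors' normalised reads, that is read counts divided by a size factor of the library, so that 1 read is worth 0.911 to 1.07 normalised reads; replicates are given in the order 1, 2, 3. The 21 listed mitochondrial genes took 4.84% to 5.12% of the counted reads in IRI and 7.23% to 7.87% with MK-8617. All of these genes passed the filter on low counts, and 5173 of 6961 genes tested (74.3%) passed the adjusted p threshold of 0.05 between the groups by limma with Benjamini-Hochberg adjustment, 35.7% higher and 38.7% lower with MK-8617. The table lists only genes with an unadjusted p below 0.05 in the authors' test, so these shares describe the table. The labels do not say that replicates are separate animals, so a p-value here reflects only sample-to-sample spread, possibly technical.

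All 5 genes were higher with MK-8617, and in each the lowest MK-8617 library exceeded the highest IRI library. Groups did not overlap in 92.5% of all tested genes, and since the 5 genes were chosen from this contrast nothing is read from their count. In bulk RNA, more mitochondria-rich cells and more mitochondrial RNA per cell cannot be told apart.

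mt-Nd5 and mt-Nd6 encode membrane subunits of complex I, which takes electrons from NADH. mt-Nd5 had 81716, 64465 and 70174 normalised reads in the IRI libraries and 130059, 150626 and 166308 with MK-8617. Its means were 72118 ± 8788 and 148998 ± 18179 (SD, n = 3 each), a 2.07-fold ratio, and the log2 difference from the fit across all genes was 1.05 (SE 0.13). The second complex I gene, mt-Nd6, had 38161, 39070 and 36883 in IRI and 57843, 75862 and 66602 with MK-8617. Its IRI libraries lay close together and its MK-8617 libraries were spread more widely, with means of 38038 ± 1098 and 66769 ± 9010, a 1.76-fold ratio and a log2 difference of 0.80 (SE 0.12). In the MK-8617 group mt-Nd5 was highest in replicate 3 and mt-Nd6 in replicate 2, and both were lowest in replicate 1.

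mt-Cytb encodes cytochrome b, the only mitochondrially encoded subunit of complex III, which passes electrons from ubiquinol to cytochrome c. It had 208931, 206345 and 194131 normalised reads in IRI and 330199, 362793 and 329278 with MK-8617. It was the most abundant of the 5 genes in every library and the tightest of the 4 mRNAs between MK-8617 replicates. Its means were 203135 ± 7905 and 340757 ± 19090 (SD, n = 3 each), a 1.68-fold ratio, with a log2 difference of 0.75 (SE 0.10).

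mt-Co3 encodes a core subunit of complex IV, cytochrome c oxidase, which hands electrons to oxygen. It had 3193, 3560 and 3969 normalised reads in IRI and 16223, 8603 and 10657 with MK-8617. MK-8617 replicate 1 stood above the other replicates of its group, yet the lowest of them still exceeded every IRI library. The means were 3574 ± 388 and 11828 ± 3943 (SD, n = 3 each), a 3.31-fold ratio, with a log2 difference of 1.68 (SE 0.21), the greatest of the 4 mRNAs. Without MK-8617 replicate 1 the log2 difference was 1.43. The median over the 4 mRNAs was 0.92, beside -0.31 over all genes tested.

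mt-Te is treated apart because it is a transfer RNA, a molecule shorter than most fragments that an mRNA library retains. Its normalised reads were 189, 167 and 132 in IRI and 1209, 1194 and 1258 with MK-8617, from 138 to 200 and from 1119 to 1183 recovered reads. The MK-8617 libraries differed by little from each other, and the IRI libraries were all far below them. The means were 163 ± 28.7 and 1220.4 ± 33.3 (SD, n = 3 each), a ratio of means of 7.5 and a log2 difference of 2.91 (SE 0.14). Counts on this gene may come from the mature transfer RNA or from longer precursors that cross it, and the table does not separate them. A read that runs from mt-Te into mt-Nd6 or mt-Cytb falls on more than a single gene. How such reads were counted is not given in the sources used here. The kit is not described as stranded, so reads of the opposite strand cannot be told apart from those of mt-Te or mt-Nd6.

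**Figure D2:**
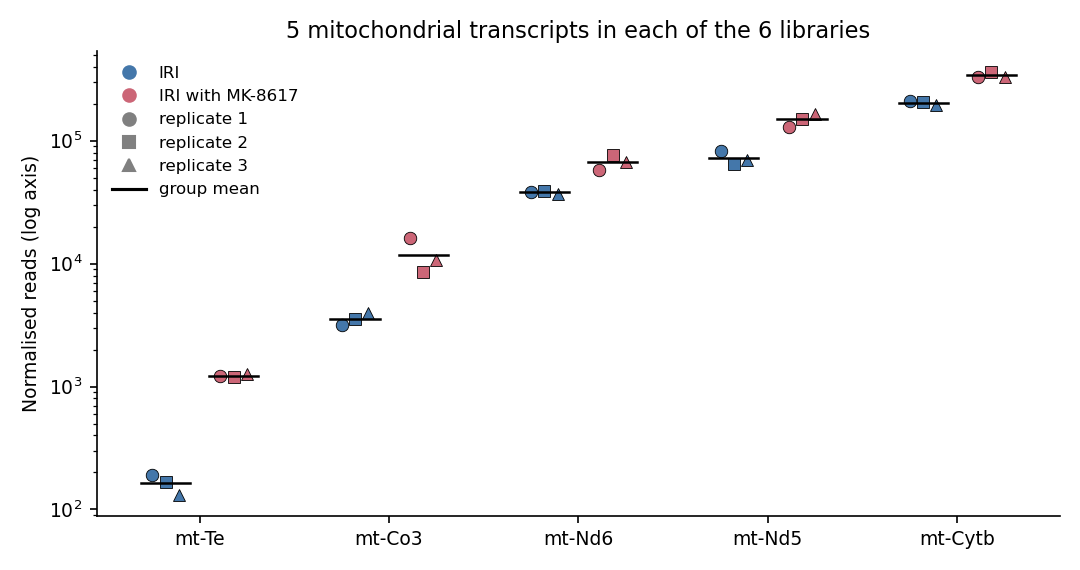
Normalised reads (y axis, log axis) of the 5 transcripts on the x axis, with a circle, square or triangle for replicates 1, 2 and 3 of each group and a black line for the group mean. For each gene the MK-8617 points lie above all IRI points, and mt-Co3 replicate 1 (16223) stands above the other MK-8617 values of that gene.

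Per length, on the deposited FPKM scale (reads per kilobase of gene, scaled to the library total), the order in IRI was mt-Cytb, mt-Nd6, mt-Nd5, mt-Co3 and mt-Te. The mean levels were 9993 ± 429, 4124 ± 130, 2225 ± 278, 256 ± 26.7 and 133 ± 24.0 FPKM (SD, n = 3), and no neighbours in this order overlapped. The step from mt-Nd5 to mt-Co3, 8.68-fold, was the widest. With MK-8617 the same order held at the top, at 16555 ± 870 FPKM for mt-Cytb, 7150 ± 953 for mt-Nd6 and 4542 ± 568 for mt-Nd5. mt-Te (983 ± 31.3) then came before mt-Co3 (839 ± 279), but the libraries of these last genes overlapped, so their order was not resolved.

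Ratios within a library do not depend on its scaling. mt-Nd6 to mt-Cytb was 0.403, 0.417 and 0.419 in IRI and 0.386, 0.461 and 0.446 with MK-8617 in FPKM, and these ranges overlapped. mt-Nd5 to mt-Cytb was 0.245, 0.196 and 0.227 in IRI and 0.247, 0.260 and 0.317 with MK-8617; these did not overlap, although the closest values differed little. mt-Co3 to mt-Cytb was 0.0223, 0.0252 and 0.0298 in IRI and 0.0717, 0.0346 and 0.0472 with MK-8617, again without overlap. These ratios describe genes chosen for their difference and were not tested.

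The transfer RNA differed from its neighbours by more. mt-Te to mt-Nd6, the gene it touches on the same strand, was 0.0373, 0.0321 and 0.0270 in IRI and 0.157, 0.118 and 0.142 with MK-8617 in FPKM, so the mean ratio was 4.33 times as high. Of all reads on the 10 listed mitochondrial transfer RNAs, mt-Te made up 19.5%, 15.9% and 13.9% in IRI and 58.0%, 62.5% and 57.5% with MK-8617. It was thus a minority of these reads in every IRI library and the majority in every MK-8617 library. As a share of all counted reads the 4 mRNAs took 1.71% to 1.88% in IRI and 2.97% to 3.31% with MK-8617, and the other 16 listed mitochondrial genes 3.07% to 3.24% and 4.26% to 4.66%.

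Parts of the mitochondrial genome have been copied into nuclear chromosomes, and the degree of likeness limits which reads can be placed. Among annotated nuclear transcripts, mt-Co3 (784 bases) had a copy, Gm28437 (GRCm38, chr1:24613189-24613971, minus strand, 783 bases), identical over all 783 bases. The closest copies of the others were less alike: Gm11407 with 92.3% identity over 1058 bases of mt-Nd5, Gm11408 with 93.6% over 519 bases of mt-Nd6 and Gm11410 with 92.9% over 1142 bases of mt-Cytb, whose longest identical runs were 95, 39 and 47 bases. These 3 lie side by side at chr4:80002331-80005131, in the order of the mitochondrial genes, and none is listed in the table. For mt-Te no copy was found among annotated transcripts; the rest of the nuclear genome was not searched.

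mt-Co3 values are uncertain for this reason, since a read that lies wholly inside the shared bases could be given to either gene. Gm28437 had 1847, 2048 and 2840 normalised reads in IRI and 1598, 1794 and 1292 with MK-8617, a log2 difference of -0.51 (SE 0.18, adjusted p = 0.0605, limma with Benjamini-Hochberg). It passed the threshold, lower with MK-8617, without IRI replicate 1 (-0.64) and by DESeq2 (-0.52). It was weaker without IRI replicate 3 (-0.33, adjusted p = 0.128) and with length and GC trends removed (-0.20), and its sign turned with the length trend removed (0.26). The ratio of mt-Co3 to Gm28437 was 1.73, 1.74 and 1.40 in IRI and 10.2, 4.80 and 8.25 with MK-8617. Summed, the pair had 5040, 5608 and 6809 normalised reads in IRI and 17822, 10397 and 11949 with MK-8617, groups that did not overlap, and its log2 difference was 1.17 where that of mt-Co3 alone was 1.68. mt-Co2 has a like copy, Gm28661, identical over 681 bases, and the sum of that pair went the other way. It was 14303, 17650 and 13858 normalised reads in IRI and 8776, 8672 and 6609 with MK-8617, without overlap. The ratio of mt-Co2 to Gm28661 was 0.843, 0.931 and 1.03 in IRI and 2.71, 2.38 and 1.19 with MK-8617, so it rose as that of mt-Co3 to Gm28437 did. How reads that fit both genes of a pair were counted is not given in the sources used here.

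**Figure D3:**
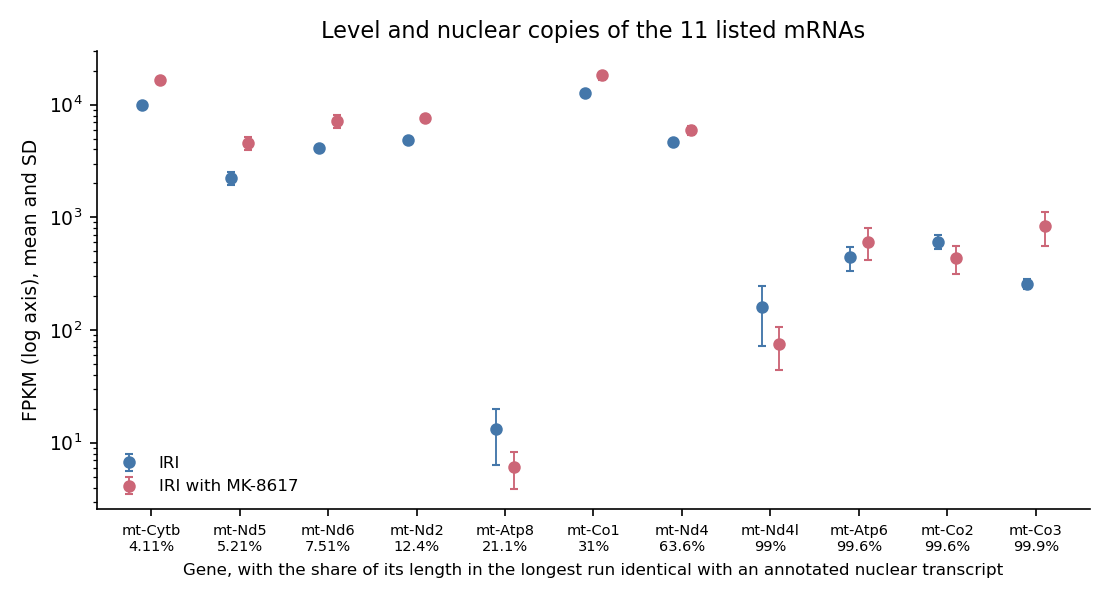
Mean FPKM with SD (n = 3, log axis) of the 11 listed mitochondrial mRNAs in IRI and with MK-8617, ordered on the x axis by the share of the gene's length in its longest run identical with an annotated nuclear transcript. mt-Cytb (4.11%), mt-Nd5 (5.21%) and mt-Nd6 (7.51%) are at the left, at 2225 FPKM or more in IRI, and mt-Co3 (99.9%) is at the right with 256 FPKM in IRI and 839 FPKM with MK-8617.

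The 4 listed mRNAs with an identical run over 90% of their length (mt-Co2, mt-Atp6, mt-Co3 and mt-Nd4l) had mean IRI levels of 160 to 606 FPKM. The 5 with a run under 50%, leaving out mt-Atp8, had 2225 to 12553 FPKM. mt-Atp8 was an exception, with 21.1% of its length in an identical run and 13.2 FPKM, and mt-Nd4, at 63.6%, had 4618 FPKM. In 4 other listed nuclear genes that match mitochondrial DNA the directions were mixed: Gm28661 (a copy of mt-Co2) had a log2 difference of -1.57 (SE 0.14, adjusted p = 0.000168), Gm28438 (of mt-Nd3) -1.13 (SE 0.16, adjusted p = 0.00148), Gm13339 (of mt-Nd2) -1.79 (SE 0.40, adjusted p = 0.0107) and Gm13341 (of mt-Co2) 1.85 (SE 0.45, adjusted p = 0.0148), all by limma. The calls of Gm28438 (-0.08) and Gm13339 (-0.86) were lost with the length trend removed, where Gm28661 was at -0.75, and that of Gm13341 without MK-8617 replicate 2 (1.70).

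Among the other 16 listed mitochondrial genes 6 were higher, 1 was lower and 9 did not pass the test (limma, adjusted p below 0.05), where 35.7% of all tested genes were higher and 38.7% lower. Of 7 mRNAs, mt-Co1 (complex IV) rose by 0.55 on the log2 scale (SE 0.10, adjusted p = 0.00532), mt-Nd2 (complex I) by 0.68 (SE 0.11, adjusted p = 0.00208) and mt-Nd4 (complex I) by 0.37 (SE 0.11, adjusted p = 0.0316), by limma. The call of mt-Nd4 was lost with the replicate number as a block and on leaving out IRI 1, IRI 2, MK-8617 1 or MK-8617 2. The other 4 mRNAs were not called: mt-Atp6 (ATP synthase) had a log2 difference of 0.45, mt-Co2 -0.49, mt-Atp8 -1.01 and mt-Nd4l -1.02. Single libraries moved these values by more than 1.5 times: mt-Atp6 was 0.26 without MK-8617 replicate 1 and 0.75, then called higher, without MK-8617 replicate 3; mt-Co2 was -0.23 without MK-8617 replicate 3, mt-Atp8 -0.62 without IRI replicate 2 and mt-Nd4l -0.60 without IRI replicate 3. mt-Co2, mt-Atp8 and mt-Nd4l had the opposite sign to mt-Co3, mt-Nd5, mt-Nd6 and mt-Cytb, and all of them turned positive when a trend with gene length was taken out (0.33, 0.16 and 0.07).

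The other 9 listed transfer RNAs spanned both signs. mt-Ty (tyrosine) had 53.0, 26.4 and 42.2 normalised reads in IRI and 180, 166 and 197 with MK-8617, a log2 difference of 2.18 (SE 0.28, adjusted p = 0.000855 by limma). mt-Ta (alanine) rose by 1.88 (adjusted p = 0.0291) and mt-Tg (glycine) by 1.56 (adjusted p = 0.0254), both from under 60 normalised reads in any IRI library, while mt-Tn (asparagine) fell by 1.15 on the log2 scale (adjusted p = 0.00894, limma). The minus strand carries mt-Te, mt-Ty, mt-Ta and mt-Tn, so genes of one strand did not share a sign, although mt-Tn was at 0.23 with the length trend removed. mt-Tl1 (1.10), mt-Tw (1.29), mt-Ts2 (1.18), mt-Th (-0.84) and mt-Tl2 (-1.06) did not pass the test. Without IRI replicate 3 mt-Tl1 (1.497), mt-Tw (1.81), mt-Th (-1.16) and mt-Tl2 (-1.37) passed it, as did mt-Ts2 (1.59) without IRI replicate 2, and without IRI replicate 1 mt-Tw was 0.75. The calls of mt-Ta and mt-Tg were each lost on leaving out any of 4 single libraries, which for both included IRI 1, MK-8617 1 and MK-8617 3; the call of mt-Tn was lost with the length and GC trends removed (-0.98).

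**Figure D4:**
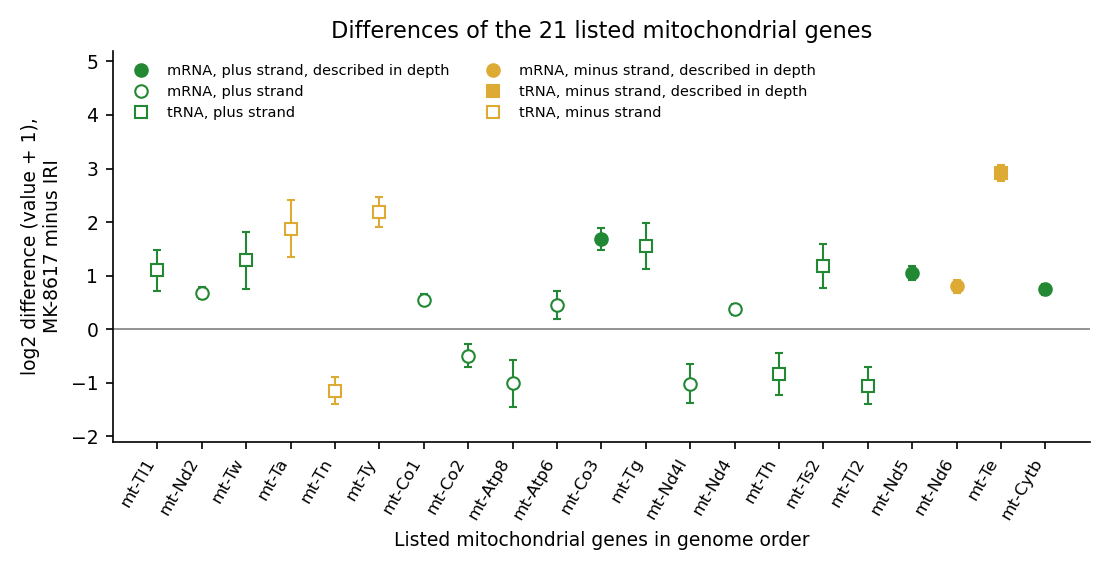
Log2 difference (y axis, MK-8617 minus IRI, with its SE) of the 21 listed mitochondrial genes in genome order on the x axis, with circles for mRNAs, squares for transfer RNAs, a colour for each strand and filled symbols for the 5 genes described in depth. mt-Te (2.91) and mt-Co3 (1.68) lead their classes, and the other 16 genes run from -1.15 (mt-Tn) to 2.18 (mt-Ty).

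Most nuclear partners of the same complexes were lower with MK-8617 in this table. Of 61 nuclear subunit genes of complexes I, III and IV, 45 were listed and tested; 36 were lower with MK-8617 and 1 was higher, with a median log2 difference of -0.84 beside -0.31 over all genes tested and with 38.7% of those lower. In complex I 22 of 26 were lower and 0 higher, in complex III 5 of 7 lower and 1 higher, and in complex IV 9 of 12 lower and 0 higher. The number of lower genes changed when trends with gene properties were removed. After a trend with gene length was taken out, 15 of the 45 were lower where 28.4% of all tested genes were. After trends with length and GC content 16 were lower where 29.1% of all genes were. Both shares lie near those of all genes, so no clear excess of lower calls remained in these settings. Calls in the other direction were still few. With the length trend removed only Uqcrc2 (0.54) was called higher, where 31.4% of all tested genes were. After length and GC trends only Uqcrc2 and Ndufb11 (0.30) were, where 30.8% of all genes were. The cause was not tested. All 5 mitochondrial genes stayed higher over the same settings, but they were chosen from this contrast, so no comparison with the nuclear subunits is drawn. Of the other listed mitochondrial genes, mt-Tn, mt-Co2, mt-Atp8, mt-Nd4l, mt-Th and mt-Tl2 changed sign with the length trend removed.

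In complex I, whose subunits surround mt-Nd5 and mt-Nd6, the accessory subunit gene Ndufa3 fell from 2468, 2891 and 2793 normalised reads to 963, 708 and 667 (log2 difference -1.82, SE 0.15, adjusted p = 0.00011, limma). Ndufs6 (-1.46, SE 0.17) and Ndufb8 (-0.88, SE 0.11), of the same complex, fell too. In complex III, beside mt-Cytb, Uqcr11 fell from 3132, 3509 and 2776 to 1315, 1027 and 868 (-1.57, SE 0.16, adjusted p = 0.000309, limma), and Uqcrb (-1.16, SE 0.12) and Uqcr10 (-0.95, SE 0.12) fell. Uqcrc2, a core subunit, was the 1 gene called higher (0.32, adjusted p = 0.0498), and its call was lost on leaving out any single library. In complex IV, beside mt-Co3, Cox5b fell from 5791, 5983 and 5549 to 2738, 2040 and 1684 (-1.45, SE 0.16, adjusted p = 0.000495, limma), with Cox8a at -1.18 (SE 0.15) and Cox7c at -0.89 (SE 0.11). With the length trend removed the calls of Uqcr10 (-0.06) and Cox8a (-0.31) were lost, and Ndufa3 (-1.17), Ndufs6 (-0.76), Uqcr11 (-0.71), Uqcrb (-0.44) and Cox7c (-0.29) stayed lower by smaller values.

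**Figure D5:**
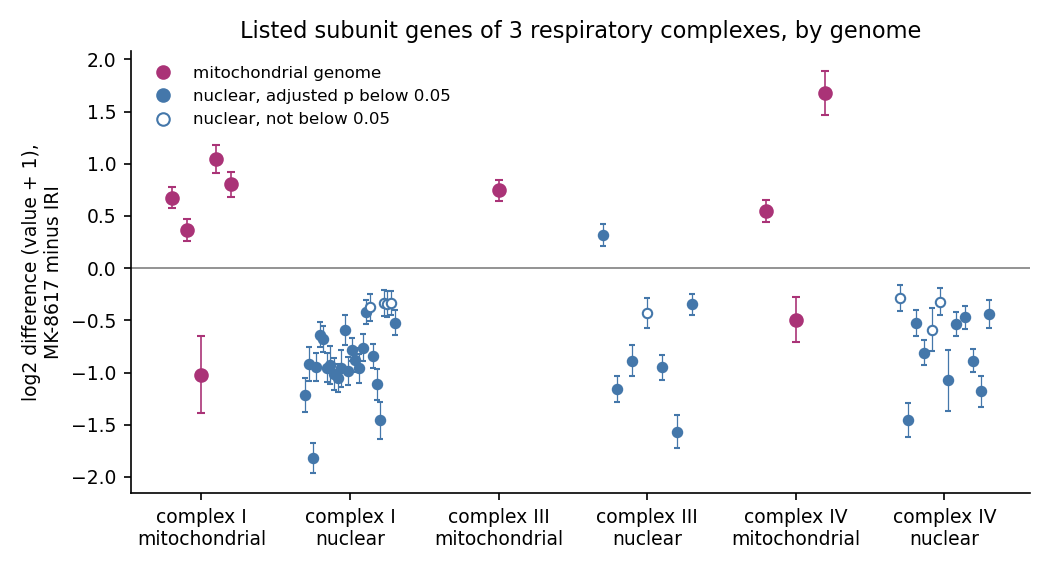
Log2 difference (y axis, MK-8617 minus IRI, with its SE) of the listed subunit genes of complexes I, III and IV, with mitochondrially encoded and nuclear genes of each complex side by side on the x axis; open circles are nuclear genes whose adjusted p was not below 0.05. mt-Nd5 (1.05), mt-Nd6 (0.80), mt-Cytb (0.75) and mt-Co3 (1.68) lie above 0, mt-Nd4l (-1.02) and mt-Co2 (-0.49) lie below it, and the nuclear genes lie below 0 down to Ndufa3 (-1.82), except Uqcrc2 (0.32).

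Mitochondrial RNA is made by a nuclear-encoded polymerase, Polrmt, with its partners. Of 20 listed names of mitochondrial DNA transcription and replication 6 were in the table, 5 higher and 1 lower, beside 35.7% higher and 38.7% lower of all tested genes, with 2 higher on leaving out MK-8617 replicate 1 or 2. The lower gene, Primpol (-0.75), lost its call on leaving out IRI replicate 1 or 2 or MK-8617 replicate 1 or 3, with TMM scaling (-0.69) and by edgeR (-0.73). Tfb2m, which helps the polymerase open the promoter, had 433, 446 and 420 normalised reads in IRI and 591, 645 and 648 with MK-8617 (log2 difference 0.53, SE 0.10, adjusted p = 0.00568, limma). Tk2, the mitochondrial thymidine kinase, rose by 0.67 (SE 0.13, adjusted p = 0.00612) and Twnk, the replicative helicase, by 0.56 (SE 0.14, adjusted p = 0.0153), which no longer passed on leaving out MK-8617 replicate 1 or 2. Polrmt itself had 0.35 (adjusted p = 0.0431), a call lost on leaving out any library except IRI replicate 3, under the replicate block and with the length trend removed (0.33).

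Of 22 genes that process or stabilise mitochondrial RNA 6 were in the table, 3 higher and 3 lower, beside 35.7% and 38.7% of all tested genes. Leaving out any single library left 1 or 2 higher: the call of Grsf1 (0.30) was lost each time, and that of Fastkd3 (0.55) without IRI replicate 1 or MK-8617 replicate 1 or 3, and both were lost under the replicate block. Slirp, an RNA-binding protein that works with Lrpprc to keep mitochondrial mRNAs stable, had 88.02, 138 and 95.9 normalised reads in IRI and 11.3, 3.20 and 5.32 with MK-8617 (log2 difference -3.95, SE 0.44, adjusted p = 0.000483, limma). All MK-8617 libraries were low, and on the log2(FPKM + 1) scale the difference was -1.39. Rexo2, an exonuclease that clears short RNA in mitochondria, fell by 0.81 on the log2 scale (SE 0.10, adjusted p = 0.000633), and Fastkd1, of a family that acts on mitochondrial RNA, rose by 0.60 (SE 0.13, adjusted p = 0.00939).

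A list of 16 genes covered the maturation and charging of the transfer RNA for glutamate and the related glutaminyl-tRNA step. Of these 3 were in the table, with 2 lower and 0 higher, beside 38.7% lower of all tested genes. Gatc, of the enzyme that completes mitochondrial glutaminyl-tRNA and so not specific to mt-Te, had a log2 difference of -0.50 (adjusted p = 0.00783, limma). Hsd17b10, a subunit of mitochondrial RNase P, had -0.37 (adjusted p = 0.0498, limma). Both calls were lost with the length trend removed, where Gatc was at -0.13 and Hsd17b10 at 0.16, and that of Hsd17b10 was lost on leaving out most single libraries.

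Regulators of mitochondrial number and of oxygen-dependent respiration were also listed in part. Of 15 biogenesis regulators 7 were in the table, 4 higher and 1 lower, beside 35.7% and 38.7% of all tested genes. Without MK-8617 replicate 3, 2 were lower. Esrra, an orphan receptor that drives respiratory genes, fell by 1.16 on the log2 scale (SE 0.11, adjusted p = 0.000283), while Ppara, a fatty acid receptor, rose by 1.19 (SE 0.18, adjusted p = 0.00177) and the deacetylase Sirt1 by 0.76 (SE 0.13, adjusted p = 0.00356), by limma. Of 12 mitochondrial targets of HIF 7 were in the table, 4 higher and 1 lower, beside the same shares of all genes. Bnip3, a mitophagy receptor, had 801, 910 and 672 normalised reads in IRI and 5565, 7262 and 5748 with MK-8617, a log2 difference of 2.96 (SE 0.14, adjusted p = 1.57e-05, limma). Its relative Bnip3l was at 1.51 (SE 0.09) and Pdk1, which restrains entry of pyruvate into the citric acid cycle, at 1.05 (SE 0.11).

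Outside the mitochondrial genome the genes whose log2 profile over the 6 libraries came nearest to the mean profile of the 4 mRNAs were Zfp318, Bcl9l, Abcd3, P4ha2 and Rsrp1, with root mean square differences of 0.039, 0.052, 0.064, 0.070 and 0.071. By the same measure the mRNAs themselves lay farther from their mean: mt-Nd5 0.14, mt-Cytb 0.18, mt-Nd6 0.19 and mt-Co3 0.41, and mt-Te 0.93. The 6 libraries fall into 2 groups, so likeness mostly means a like difference between groups; Abcd3, a peroxisomal transporter, had a log2 difference of 1.17, and P4ha2, a collagen prolyl hydroxylase subunit, 1.15.

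Cell type markers differed between the groups in both directions. Their calls stand beside 35.7% higher and 38.7% lower of all tested genes, and their medians beside a median log2 difference of -0.31. Of 16 proximal tubule markers 7 were listed, and their summed level was 19484 to 62843 normalised reads in IRI and 126254 to 130263 with MK-8617, without overlap. Of 8 thick ascending limb markers 7 were listed, with sums of 26913 to 45649 and 34440 to 54593, which overlapped, while 5 of these 7 were called lower and 1 higher (limma), with a median log2 difference of -1.06. Of the 7 listed proximal tubule markers 4 were higher and 0 lower, with a median of 1.23. Of 11 macrophage and monocyte markers 8 were listed, with sums of 2722 to 5343 and 1124 to 1497, and 7 of them were lower and 0 higher. Of 8 fibroblast and pericyte markers 6 were listed, with sums of 17964 to 32354 and 5776 to 7181, 5 lower and 1 higher. Of 7 distal convoluted tubule markers 3 were listed, 2 higher and 0 lower, with sums of 1508 to 2069 and 2111 to 4008. Of 10 collecting duct markers 5 were listed and 4 tested, 0 higher and 2 lower, with sums of 4685 to 5010 and 2388 to 3170. Of the listed markers, 2 of 2 for podocytes, 1 of 2 for endothelium and 1 of 1 for red blood cells were higher, and 2 of 2 for neutrophils were lower. No listed marker was at 0 in every library, and proximal tubule markers were present in all libraries as the kidney label implies. The part of cell composition in the mitochondrial values was not tested.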

How the data were processed

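Total RNA from 6 mouse kidney samples (TRIzol, NEBNext Ultra RNA kit, per the labels' protocols) was grouped by title; treatment entries of 2 MK-8617 samples name other numbers and were not followed. DESeq2 1.20.0, featureCounts 1.5.0-p3, HISAT2 2.0.5, fastp and CASAVA 1.8 are named in the submitters' processing notes, which also give GRCh38 (hg38), whereas the deposited identifiers are mouse and matched GRCm38 in 7338 of 7340 genes. The deposited signal values are gene counts the authors divided by a size factor per library. Whole reads were recovered for 100% of values (tolerance 0.001) and equalled the authors' count, deposited for IRI replicate 3, in 7340 of 7340 genes; the count tests on these reads called 5081 (edgeR) and 5460 (DESeq2) genes. FPKM values are the authors' scaling to gene length and library total, and log2 fold changes and p-values are the authors' own, deposited for genes with p below 0.05. The 13 unnamed empty columns were left aside.

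From these, limma 3.58.1 (trend, robust, R 4.3.3) was fitted on log2(value + 1), so fold changes are on that scale and understate low genes. The filter (filterByExpr of edgeR 4.0.16) left 6961 of 7340 genes, and p-values were adjusted over the 18811 genes the authors tested. Scripts were tested on simulated data. Nuclear copies were sought by BLAST 2.17.0 among GENCODE M21 transcripts (E-value limit 1e-05; listed copies with at least 100 aligned bases). The genes and lists were chosen with earlier results of these data known. Named genes are the 5, all other listed mitochondrial genes, up to 3 called genes of smallest adjusted p per nuclear list, listed nuclear copies and the 5 nearest profiles. Uqcrc2 and Polrmt were named after their values were seen, and Primpol, Grsf1 and Fastkd3 are also named outside this rule. Alternatives were normalisation, unit, pseudocount, filter, test, replicate block and leaving out each library, and, chosen after seeing the data, trends with length and GC content, CPM outside mitochondrial genes and the sum of mt-Co3 with Gm28437.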

Additional observations from a re-analysis of the deposited data

How the results depend on the processing

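The 5 genes, which were chosen from this contrast, kept a positive difference under each alternative tried. Leaving out 1 library at a time, the log2 difference ranged from 1.43 to 1.88 for mt-Co3, 0.96 to 1.14 for mt-Nd5, 0.71 to 0.90 for mt-Nd6, 0.70 to 0.77 for mt-Cytb and 2.77 to 3.03 for mt-Te, the mRNA median from 0.87 to 1.02, the genes called from 3412 (without MK-8617 replicate 1) to 5144, and the lower nuclear subunits from 31 to 39. With a trend with gene length removed, which moved the median of all genes from -0.31 to 0.00, the values were 2.45 for mt-Co3, 1.41 for mt-Nd5, 1.73 for mt-Nd6, 1.34 for mt-Cytb and 4.30 for mt-Te, with an mRNA median of 1.57 and 15 nuclear subunits lower; mt-Tn (0.23), mt-Co2 (0.33), mt-Atp8 (0.16), mt-Nd4l (0.067), mt-Th (0.55) and mt-Tl2 (0.32) changed sign. With length and GC trends removed mt-Cytb was 0.97 and mt-Te 3.15, with 16 subunits lower. Summed with Gm28437, mt-Co3 was at 1.17, since both genes' reads then count. The cause of the other shifts was not tested. With the replicate number as a block 5257 genes were called. The block cannot change the differences of the 5 genes, because each group holds every replicate number once. After each gene's group mean was taken away, what remained in same-numbered samples of both groups correlated at 0.02, 0.12 and 0.11. The numbers were therefore not taken as pairs. TMM scaling called 55.6% of the called genes higher, against 48.0% with the authors' size factors. At a few reads, as for mt-Ta, depth limits the value.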
